A study of Mus musculus with 4 samples.

Results

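The genes described here encode the kinase mTOR, the subunits of its complexes mTORC1 and mTORC2, and the regulators placed directly around them. They were *Mtor*, *Rptor*, *Akt1s1*, *Rictor*, *Mlst8*, *Deptor*, *Tsc1*, *Tsc2*, *Rheb* and *Rps6kb1*, 10 of the 25923 named genes in the deposited RNA-seq table. Membership was set by gene name and used no measured value, though the members were chosen with earlier results of these data known. Each gene was represented by its transcript with the longest gene body among the annotated transcripts on the same strand, 47 in all for the 10 genes. RPKM, read numbers corrected for transcript length and library size, were compared in 4 libraries of immortalized mouse embryonic fibroblasts (MEF). The cells came from C57BL/6 embryos at day 15.5, from the trunk left after head, limbs and inner organs had been taken away, and had been immortalized with simian virus 40. They were wild type (*Hmga2*+/+) or lacked *Hmga2* (*Hmga2*-/-, which the genotype label of these samples shortens to Hmga-/-). Both genotypes were held overnight in 1% fetal calf serum, and then received water (Ctrl) or human recombinant TGFB1 at 10 ng/ml for 24 h. With 1 library for each of the 4 conditions, and no label saying how many embryos gave each line, no difference below has a replicate check and none has a p-value. The intervals given are 95% counting intervals from the reads behind each value and compare libraries, not conditions.

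The kinase mTOR joins growth factor and nutrient signals to protein synthesis, growth and autophagy. With Raptor (*Rptor*) it forms mTORC1, which phosphorylates S6 kinase and the 4E-BP proteins, and with Rictor it forms mTORC2, which phosphorylates AKT and SGK kinases. The TSC1 and TSC2 proteins hold mTORC1 back by turning off the small GTPase RHEB, which activates it. TGFB1 is a cytokine that drives fibroblasts to make matrix and contractile proteins. HMGA2 is a chromatin protein that bends DNA at AT-rich sites. In the study's promoter assays *Mtor* was chosen as a target of HMGA2 and *Rptor* the negative control. By qRT-PCR the study reported lower *Mtor* expression in *Hmga2*-/- than in *Hmga2*+/+ MEF, and no such effect for *Rptor*. It also reported that TGFB1 raised *Mtor* expression in *Hmga2*+/+ but not in *Hmga2*-/- MEF. The levels of both genes in the RNA-seq libraries of the 2 genotypes are therefore of interest here.

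The 4 libraries held between 56140000 and 57300000 mapped reads, at which 3 reads on a transcript of 1000 bases correspond to 0.0524 to 0.0534 RPKM. *Hmga2* itself had 14.8 and 40.7 RPKM in the *Hmga2*+/+ Ctrl and TGFB1 libraries and no read in either *Hmga2*-/- library. *Ccn2* (*Ctgf*), a matricellular protein gene induced by TGFB1, had 13.2 RPKM in the *Hmga2*+/+ Ctrl library, 172.7 in the *Hmga2*+/+ TGFB1 library, 24.9 in the *Hmga2*-/- Ctrl library and 358.9 in the *Hmga2*-/- TGFB1 library. *Smad7*, an inhibitor of TGFB signaling, had 6.40, 10.6, 6.67 and 14.6 RPKM in the same order. All 8 fibroblast markers reached 1 RPKM in every library, with summed levels of 1874 to 2263 RPKM. Among them *Pdgfra* was at 24.4 and 27.1 RPKM in the *Hmga2*+/+ and *Hmga2*-/- Ctrl libraries and at 11.2 and 15.3 RPKM in the TGFB1 libraries. In the same order *Dcn* was at 7.203 and 8.46 against 2.68 and 2.07 RPKM, and *Col3a1* at 286.9 and 236.8 against 176.2 and 141.1 RPKM. Higher on TGFB1 were *Pdgfrb*, at 36.1 and 31.5 against 48.3 and 49.9 RPKM, and *Thy1*, at 5.31 and 4.11 against 8.55 and 8.88 RPKM. So was *Col1a1*, at 325.3 and 272.4 against 362.9 and 362.9 RPKM. *Col1a2* and *Vim* went in opposite directions in the genotypes. None of the 5 epithelial markers reached 1 RPKM, with summed levels of 0.411 to 1.04 RPKM, and the muscle genes *Myod1*, *Myog* and *Ckm* were at 0 in all 4 libraries. Endothelial markers summed to 3.89 to 8.14 RPKM, through *Kdr* and *Tek*, with *Pecam1* and *Cdh5* at or below 0.048 RPKM. *Kdr*, at 1.11 and 1.46 RPKM in the *Hmga2*+/+ and *Hmga2*-/- Ctrl libraries, was at 4.46 and 7.39 RPKM in the TGFB1 libraries, and *Tek* was at 2.75 and 5.65 RPKM against 0.330 and 0.686 RPKM. Blood markers summed to 1.26 to 1.63 RPKM, nearly all of it *Cd68*, with *Ptprc* at or below 0.007 RPKM. Of the neural markers, *Map2* was at 18.1 and 22.6 RPKM in the *Hmga2*+/+ and *Hmga2*-/- Ctrl libraries and at 8.82 and 9.20 RPKM in the TGFB1 libraries, *Tubb3* was at 0.913 to 4.37 RPKM, and *Sox10* and *Gfap* were at or below 0.020 RPKM. The part of these markers' cell types in the values below was not tested, and in such bulk RNA fewer cells of a type and less RNA per cell cannot be told apart.

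All 10 genes reached 1 RPKM in at least 1 library and 9 did so in all 4, *Deptor* being the exception. *Rheb* had the highest RPKM of the 10 and *Deptor* the lowest in every library, and *Rptor* and *Mlst8* stood 8th and 9th in each. In the *Hmga2*+/+ Ctrl library *Tsc2* followed *Rheb*. Next came *Akt1s1*, *Tsc1* and *Rictor*, neighbours whose counting intervals overlapped in that order. Below them the intervals of *Rps6kb1* and *Mtor* also overlapped. In the *Hmga2*+/+ TGFB1 library *Rictor* stood 2nd, clear of *Tsc1*, *Akt1s1* and *Tsc2*, neighbours whose intervals overlapped in that order. The *Hmga2*-/- Ctrl library had *Tsc2*, *Akt1s1*, *Rictor* and *Tsc1* as such a run, and the *Hmga2*-/- TGFB1 library again had *Rictor* 2nd.

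**Figure D1:**
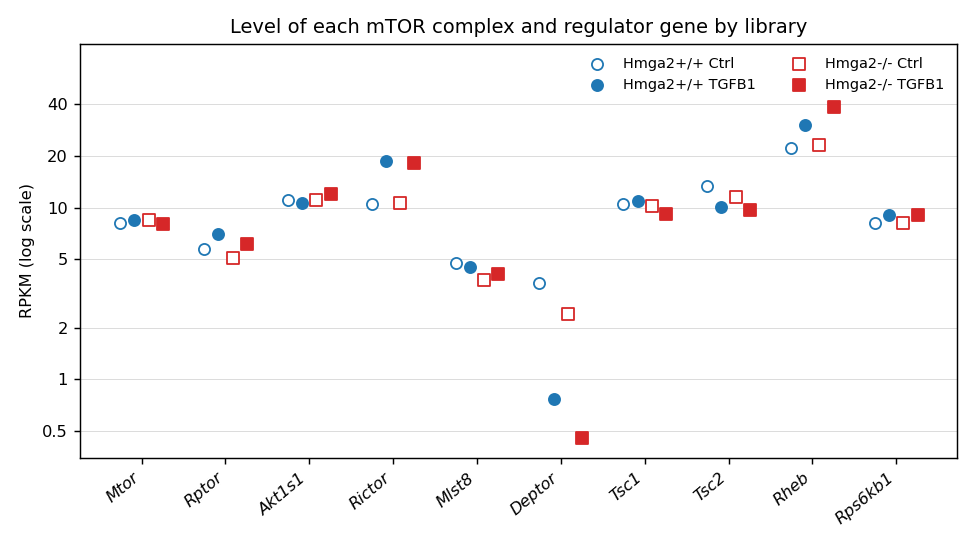
RPKM on a log scale (y axis) of the 10 genes (x axis) in the 4 libraries, 1 point per library. The TGFB1 points (filled) of *Rictor* lie above those for Ctrl (open), and those of *Deptor* lie below 1 RPKM in both genotypes.

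Sequences upstream of 3 of these genes are shown because *Mtor* and *Rptor* are the promoter pair that the study set against each other, and *Rictor* is the member that was past 1.5-fold higher on TGFB1 in both genotypes. They were taken from RefSeq (GRCm38.p6, plus strand of the chromosome, which is also the strand of these genes), reach up to 250 bases before the annotated start, and have CG dinucleotides in capitals.
*Mtor* (chr4:148448332-148448581): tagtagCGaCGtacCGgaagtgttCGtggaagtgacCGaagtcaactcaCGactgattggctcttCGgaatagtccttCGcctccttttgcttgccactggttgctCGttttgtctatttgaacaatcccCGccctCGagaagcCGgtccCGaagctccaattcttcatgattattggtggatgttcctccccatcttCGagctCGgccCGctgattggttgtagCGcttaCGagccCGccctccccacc
*Rptor* (chr11:119602655-119602904): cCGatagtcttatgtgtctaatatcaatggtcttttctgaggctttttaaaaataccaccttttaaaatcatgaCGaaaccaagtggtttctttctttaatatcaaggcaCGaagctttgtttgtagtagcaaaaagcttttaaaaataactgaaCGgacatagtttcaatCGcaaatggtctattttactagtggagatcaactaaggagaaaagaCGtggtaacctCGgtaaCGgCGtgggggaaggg
*Rictor* (chr15:6708131-6708378): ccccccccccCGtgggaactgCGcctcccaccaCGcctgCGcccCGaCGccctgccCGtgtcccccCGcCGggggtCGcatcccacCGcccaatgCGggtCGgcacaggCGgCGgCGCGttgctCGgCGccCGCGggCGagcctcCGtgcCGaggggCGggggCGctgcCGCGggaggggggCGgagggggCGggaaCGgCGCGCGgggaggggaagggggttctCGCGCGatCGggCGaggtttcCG
The *Mtor* window held 19 CG dinucleotides, more than 80.3% of the 32817 promoter windows of the same length, and 54.4% G and C. In the *Rptor* window there were 9 CG dinucleotides and 37.6% G and C, and 7.93% of all windows had a lower share of G and C. The *Rictor* window had 40 CG dinucleotides and 81.2% G and C, and 98.7% and 99.1% of all windows had less, against a median over all windows of 6 CG dinucleotides and 52.4% G and C. Of letters searched on both strands, the GC box GGGCGG stood 2 times in the *Mtor* window, 4 times in that of *Rictor* and not in that of *Rptor*, and 32.7% of all windows held it. CCAAT stood 4 times before *Mtor*, 1 time before *Rictor* and not before *Rptor*, with 33.8% of all windows holding it. The letters TGACG, held by 17.7% of windows, stood 1 time before *Rptor* alone among these 3. None of the 3 windows held TATAAA (12.4% of all windows), CAGAC (42.2%) or CACGTG (6.02%). The windows of *Akt1s1*, *Mlst8*, *Tsc1*, *Tsc2*, *Rheb* and *Rps6kb1* had 23, 15, 16, 24, 37 and 17 CG dinucleotides, so the 9 genes matched in the promoter table all lay above the median of 6. The *Akt1s1* window ends 1148 bases downstream of the start of the transcript used here and so lies inside its gene body. The other windows end at the start of their transcripts. These are counts of letters in the reference and not of occupied sites.

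On TGFB1 treatment, *Rictor* rose and *Deptor* fell past 1.5-fold in both genotypes, and the gene of the kinase itself differed little. *Rheb* rose in both genotypes, past 1.5-fold in *Hmga2*-/- MEF only. Of the 10 genes, 2 passed a 1.5-fold difference (0.585 on the log2 scale) in *Hmga2*+/+ MEF, 1 in each direction, where 30.9% of all named genes did so (11.7% higher and 19.3% lower). In *Hmga2*-/- MEF 3 passed, 2 higher and 1 lower, against 31.2% of all genes (12.9% higher and 18.4% lower). Among the 11377 genes that reached 1 RPKM in any library these shares were 29.8% in *Hmga2*+/+ (12.1% higher and 17.7% lower) and 29.7% in *Hmga2*-/- MEF (13.8% higher and 15.9% lower). The median log2 change of the 10 genes was 0.06 in *Hmga2*+/+ and 0.12 in *Hmga2*-/- MEF, beside -0.05 and 0.0064 over those 11377 genes.

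*Mtor* (chr4:148448582-148557685, plus strand), which encodes the catalytic subunit of both complexes, was at 8.15 RPKM in *Hmga2*+/+ Ctrl, 8.54 in *Hmga2*+/+ TGFB1, 8.46 in *Hmga2*-/- Ctrl and 8.08 in *Hmga2*-/- TGFB1. The 4 values lay within a narrow band, and no pair of libraries came near 1.5-fold. Its log2 change on TGFB1 was 0.07 (0.0026 to 0.13) in *Hmga2*+/+ MEF and -0.07 (-0.13 to -0.0019) in *Hmga2*-/- MEF.

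Among the subunits of mTORC1, *Rptor* (chr11:119602905-119899591, plus strand), whose product recruits substrates to the kinase, was at 5.73 and 7.01 RPKM in *Hmga2*+/+ Ctrl and TGFB1 and at 5.12 and 6.17 RPKM in *Hmga2*-/- Ctrl and TGFB1. The TGFB1 library had the larger value in each genotype, with log2 changes of 0.29 (0.21 to 0.37) and 0.27 (0.18 to 0.35), above 0 in counting terms and below 1.5-fold. *Akt1s1* (chr7:44849224-44855421, plus strand) encodes PRAS40, an inhibitory subunit of mTORC1 that AKT phosphorylates. It was at 11.0, 10.6, 11.1 and 11.9 RPKM in the order *Hmga2*+/+ Ctrl, *Hmga2*+/+ TGFB1, *Hmga2*-/- Ctrl and *Hmga2*-/- TGFB1, and both intervals of its TGFB1 change included 0.

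*Rictor* (chr15:6708381-6800400, plus strand), the gene of the scaffold that defines mTORC2, was at 10.5 RPKM in *Hmga2*+/+ Ctrl and 18.8 in *Hmga2*+/+ TGFB1, and at 10.6 RPKM in *Hmga2*-/- Ctrl and 18.3 in *Hmga2*-/- TGFB1. The pair of Ctrl libraries and the pair of TGFB1 libraries each lay close together, with no overlap between treatments. It rose 1.79-fold in *Hmga2*+/+ MEF (log2 0.84, 0.79 to 0.89) and 1.72-fold in *Hmga2*-/- MEF (log2 0.79, 0.74 to 0.83). Of the 11377 genes with at least 1 RPKM, 813 (7.15%) had a larger increase in *Hmga2*+/+ MEF and 1023 (8.99%) in *Hmga2*-/- MEF. The difference between the genotypes in this response was -0.05 (-0.12 to 0.01) on the log2 scale, an interval that included 0. With the *Rictor* transcript of highest mean RPKM this difference was -0.11, and its interval was not computed.

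Of the subunits found in both complexes, *Deptor* (chr15:55112317-55259273, plus strand), an inhibitor that binds the kinase directly, fell the most of the 10. It was at 3.64 RPKM in *Hmga2*+/+ Ctrl, from 1743 reads, and at 0.769 RPKM in *Hmga2*+/+ TGFB1, from 376 reads. The corresponding *Hmga2*-/- values were 2.40 RPKM from 1158 reads and 0.457 RPKM from 222 reads. Both TGFB1 libraries were below 1 RPKM and both Ctrl libraries above 2 RPKM. *Deptor* was 4.73-fold lower on TGFB1 in *Hmga2*+/+ MEF (log2 -2.24, -2.41 to -2.08) and 5.25-fold lower in *Hmga2*-/- MEF (log2 -2.39, -2.61 to -2.18). With 1 RPKM added to each value these log2 changes were -1.39 and -1.22. In *Hmga2*+/+ MEF 120 of the 11377 genes (1.05%) had a lower ratio, and in *Hmga2*-/- MEF 113 (0.993%) did. *Deptor* is among these genes only through its Ctrl libraries, so its place among them is not further support for the fall. The genotype difference in the response was -0.15 (-0.42 to 0.12), also with 0 inside, and turned to 0.17 with 1 RPKM added to each value. *Mlst8* (chr17:24473550-24479078, minus strand), whose product steadies the kinase domain, was at 4.76, 4.49, 3.78 and 4.12 RPKM in the same order of libraries. Its TGFB1 changes of -0.09 (-0.22 to 0.05) and 0.12 (-0.03 to 0.27) both had intervals that included 0.

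Upstream of mTORC1, *Tsc2* had lower and *Rheb* higher values on TGFB1. *Tsc2* (chr17:24595816-24632627, minus strand), which encodes the GTPase-activating subunit that turns RHEB off, was at 13.3 and 10.1 RPKM in *Hmga2*+/+ Ctrl and TGFB1 and at 11.6 and 9.75 RPKM in *Hmga2*-/- Ctrl and TGFB1. Each TGFB1 value lay below both Ctrl values, with log2 changes of -0.40 (-0.47 to -0.34) and -0.25 (-0.31 to -0.18) that stayed within 1.5-fold. *Tsc1* (chr2:28641233-28691172, plus strand), the gene of the partner that stabilizes TSC2, was at 10.6, 10.9, 10.3 and 9.17 RPKM, with changes of 0.05 (-0.0090 to 0.11) in *Hmga2*+/+ and -0.16 (-0.22 to -0.10) in *Hmga2*-/- MEF.

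*Rheb* (chr5:24802823-24842361, minus strand), the gene of the GTPase that activates mTORC1, was at 22.3 RPKM in *Hmga2*+/+ Ctrl, 30.5 in *Hmga2*+/+ TGFB1, 23.1 in *Hmga2*-/- Ctrl and 38.6 in *Hmga2*-/- TGFB1. The Ctrl libraries of the genotypes were nearly level, and the *Hmga2*-/- TGFB1 library had the highest value of any member in any library. It rose 1.67-fold in *Hmga2*-/- MEF (log2 0.74, 0.66 to 0.82), while the ratio of 1.37 in *Hmga2*+/+ MEF (log2 0.45, 0.37 to 0.54) stayed within 1.5-fold. The difference between these responses, 0.28 on the log2 scale (0.17 to 0.40), exceeded counting error, but has no replicate behind it. *Rps6kb1* (chr11:86499011-86544807, minus strand), the gene of the S6 kinase that mTORC1 phosphorylates, was at 8.16, 9.08, 8.10 and 9.13 RPKM, with changes of 0.15 (0.07 to 0.23) and 0.17 (0.09 to 0.25).

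**Figure D2:**
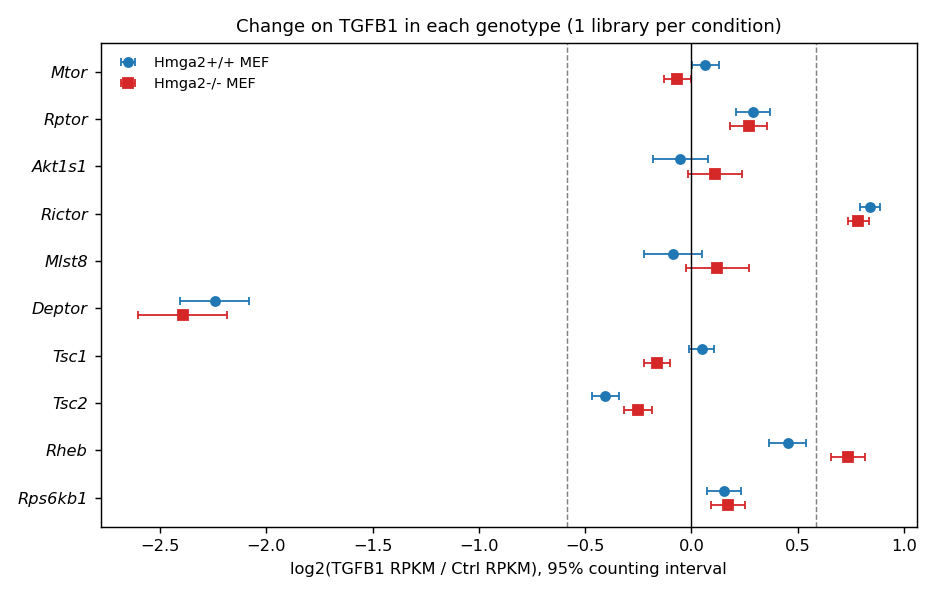
Log2 ratio of TGFB1 to Ctrl RPKM (x axis) for the 10 genes (y axis) in *Hmga2*+/+ (circles) and *Hmga2*-/- MEF (squares), with 95% counting intervals as bars and 1.5-fold as dashed lines. *Rictor* lies beyond 1.5-fold higher and *Deptor* beyond 1.5-fold lower in both genotypes, and *Rheb* passes in *Hmga2*-/- MEF.

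The annotated transcripts of a gene share exons and reads, so their values describe which parts of a gene carry a difference and are not replicates. All 7 *Rictor* transcripts were higher on TGFB1 past 1.5-fold in each genotype, by 1.77-fold to 1.95-fold in *Hmga2*+/+ and 1.67-fold to 1.75-fold in *Hmga2*-/- MEF. Both *Deptor* transcripts were lower, by 4.68-fold and 4.73-fold in *Hmga2*+/+ and by 5.13-fold and 5.25-fold in *Hmga2*-/- MEF. Every one of the 11 *Tsc2* transcripts had a lower value on TGFB1 in both genotypes, and the one past 1.5-fold in *Hmga2*+/+ MEF was a fragment of 191 bases (log2 -0.61, -0.91 to -0.32).

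The 7 *Rptor* transcripts all had higher values on TGFB1, between 0.19 and 0.31 on the log2 scale in *Hmga2*+/+ and between 0.15 and 0.31 in *Hmga2*-/- MEF. *Mtor* has a short second transcript of 1039 bases. It was at 10.0 and 10.3 RPKM in *Hmga2*+/+ Ctrl and TGFB1 and at 11.8 and 9.20 RPKM in *Hmga2*-/- Ctrl and TGFB1, a log2 change of 0.04 (-0.12 to 0.21) in *Hmga2*+/+ and -0.36 (-0.53 to -0.20) in *Hmga2*-/- MEF. The long *Mtor* transcript, at -0.07 in *Hmga2*-/- MEF, did not show a difference of that size. For the longest of 4 *Rps6kb1* transcripts the log2 values were 0.15 (*Hmga2*+/+) and 0.17 (*Hmga2*-/-). The other 3 lay between -0.11 and 0.04 in *Hmga2*+/+ and between -0.21 and -0.04 in *Hmga2*-/- MEF, so its direction depends on the transcript taken.

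**Figure D3:**
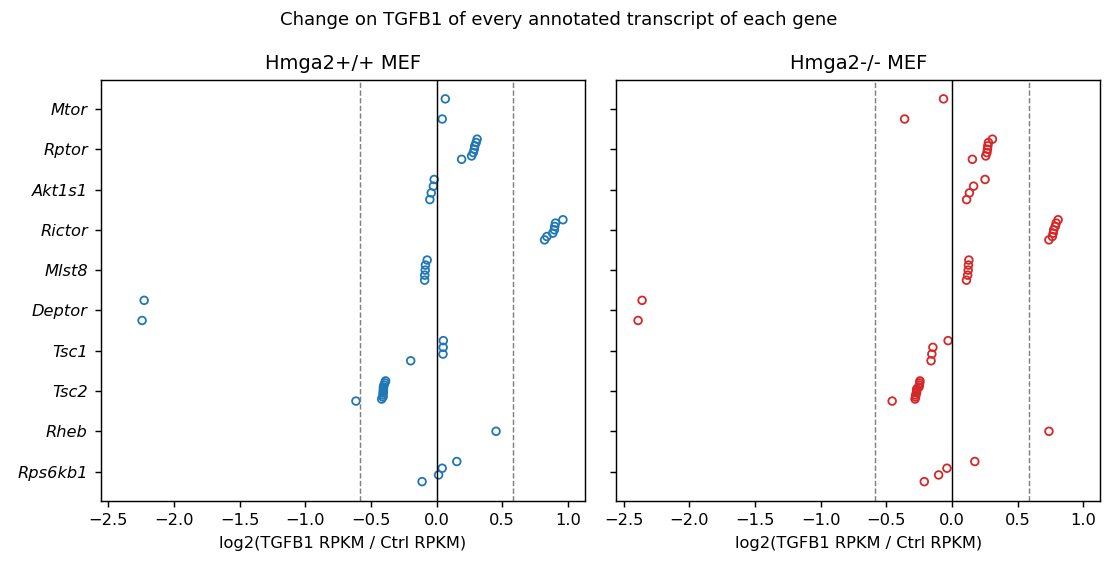
Log2 ratio of TGFB1 to Ctrl RPKM (x axis) of all 47 annotated transcripts, 1 circle each, by gene (y axis) in *Hmga2*+/+ (left) and *Hmga2*-/- MEF (right), with 1.5-fold as dashed lines. The 7 *Rictor* circles lie together beyond 1.5-fold, both *Deptor* circles lie below -2, and those of *Rps6kb1* fall on both sides of 0.

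Between genotypes the question was whether loss of *Hmga2* moved these genes without TGFB1. *Deptor* was lower in *Hmga2*-/- MEF at both treatments, and *Mtor* was not lower in the *Hmga2*-/- Ctrl library. The study's qRT-PCR, a different measure made in replicate, had reported lower *Mtor* in *Hmga2*-/- MEF, which *Hmga2* overexpression reverted. Low serum is not described for the cells of that assay. Of the 10 genes 1 passed 1.5-fold between the Ctrl libraries, where 17.3% of all named genes did (5.78% of those that reached 1 RPKM in any library), and 1 between the TGFB1 libraries, against 17.7% (6.7%). That gene was *Deptor* both times, on the lower side, where 8.82% and 8.27% of all genes lay (2.76% and 2.79% of those that reached 1 RPKM). On the higher side, with 8.48% and 9.4% of all genes (3.02% and 3.91%), there was no member. The median over the 10 genes was -0.03 between Ctrl and -0.06 between TGFB1 libraries, beside -0.02 and 0.04 over genes with at least 1 RPKM.

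*Deptor* was 1.52-fold lower in *Hmga2*-/- than in *Hmga2*+/+ Ctrl (log2 -0.60, -0.71 to -0.49) and 1.68-fold lower between the TGFB1 libraries (log2 -0.75, -0.997 to -0.51). The first value only just passed 1.5-fold and fell short of it, at -0.57, when libraries were scaled by the median ratio, and at -0.45 and -0.582 with 1 or 0.1 RPKM added to each value. With 1 RPKM added, the second was -0.28. In the Ctrl comparison 295 of 11377 genes (2.59%) had a lower ratio, and 223 (1.96%) in the TGFB1 comparison. *Deptor* is among these genes through its Ctrl libraries, and both TGFB1 values were below 1 RPKM.

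For *Mtor* the log2 difference of *Hmga2*-/- from *Hmga2*+/+ MEF was 0.05 (-0.01 to 0.12) in Ctrl and -0.08 (-0.14 to -0.02) in TGFB1 libraries. *Rptor* differed by -0.16 (-0.25 to -0.08) and -0.18 (-0.26 to -0.11). In the transcripts of highest mean RPKM the Ctrl difference was 0.24 (0.08 to 0.40) for *Mtor* and -0.06 (-0.20 to 0.08) for *Rptor*, so which of the intervals included 0 turned with the transcript used. Set against each other within a library, *Rptor* per *Mtor* was 0.703 in *Hmga2*+/+ Ctrl, 0.821 in *Hmga2*+/+ TGFB1, 0.605 in *Hmga2*-/- Ctrl and 0.763 in *Hmga2*-/- TGFB1. This ratio does not depend on library scaling, and it was lower in *Hmga2*-/- than in *Hmga2*+/+ Ctrl by 0.22 on the log2 scale (log2 -0.22, -0.32 to -0.11).

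*Mlst8* differed by -0.33 (-0.48 to -0.19) between Ctrl and -0.12 (-0.27 to 0.02) between TGFB1 libraries, and *Tsc2* by -0.20 (-0.26 to -0.14) and -0.04 (-0.11 to 0.02). For *Tsc1* the difference was -0.04 (-0.10 to 0.02) in Ctrl and -0.25 (-0.31 to -0.19) in TGFB1 libraries, and for *Rheb* 0.06 (-0.04 to 0.15) and 0.34 (0.27 to 0.42). Thus *Mlst8* and *Tsc2* had the wider gap without TGFB1, and *Tsc1* and *Rheb* with it. *Akt1s1* differed by 0.0055 (-0.12 to 0.13) and 0.17 (0.04 to 0.29). The intervals of *Rictor* and *Rps6kb1* included 0 at both treatments, with values between -0.04 and 0.02. For *Rictor* this depends on the transcript taken. All 7 of its transcripts were lower in the *Hmga2*-/- than in the *Hmga2*+/+ TGFB1 library. The one of highest mean RPKM differed by -0.10 (-0.19 to -0.01).

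**Figure D4:**
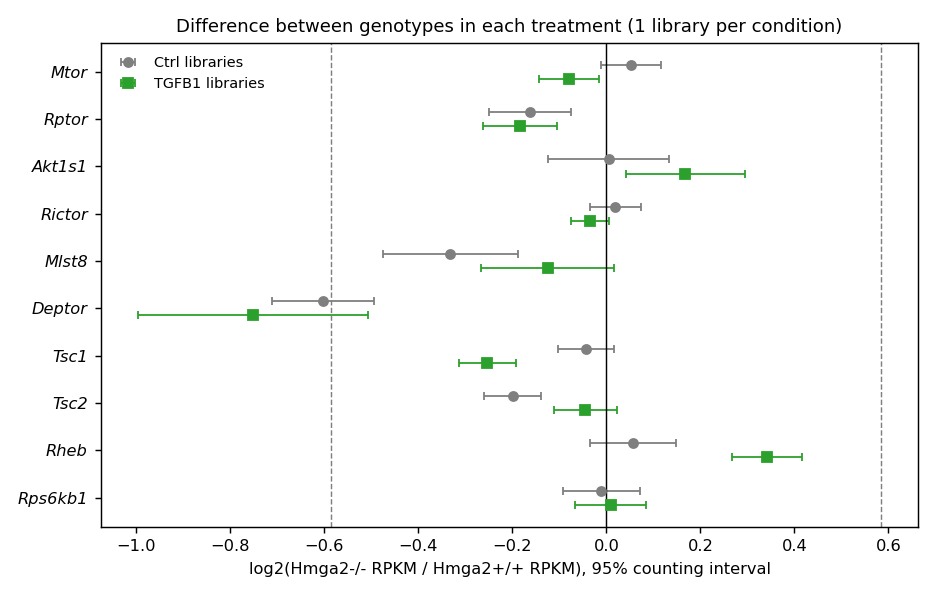
Log2 ratio of *Hmga2*-/- to *Hmga2*+/+ RPKM (x axis) for the 10 genes (y axis) in Ctrl (circles) and TGFB1 libraries (squares), with 95% counting intervals as bars and 1.5-fold as dashed lines. *Deptor* is the one gene beyond 1.5-fold, and *Mtor* and *Rictor* lie near 0.

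Ratios of partners within a library show how the balance of the transcripts stood. *Rictor* per *Rptor*, the scaffold genes of mTORC2 and mTORC1, was 1.83 in *Hmga2*+/+ Ctrl, 2.68 in *Hmga2*+/+ TGFB1, 2.07 in *Hmga2*-/- Ctrl and 2.97 in *Hmga2*-/- TGFB1. It was larger in the TGFB1 library of each genotype, by 0.55 (0.46 to 0.64) and 0.52 (0.42 to 0.61) on the log2 scale. *Rheb* per *Tsc2*, activator over inhibitor, was 1.67, 3.03, 1.997 and 3.96 in the same order.

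That ratio was larger with TGFB1 by 0.86 (0.75 to 0.96) in *Hmga2*+/+ and 0.99 (0.88 to 1.09) in *Hmga2*-/- MEF. It passed 1.5-fold in both genotypes, while neither gene did so alone in *Hmga2*+/+ MEF. *Deptor* per *Mtor* went from 0.446 in *Hmga2*+/+ Ctrl to 0.0901 in *Hmga2*+/+ TGFB1, and from 0.283 to 0.0566 in *Hmga2*-/- MEF. *Tsc1* per *Tsc2* was 0.794 and 1.09 in *Hmga2*+/+ Ctrl and TGFB1 and 0.885 and 0.941 in *Hmga2*-/- Ctrl and TGFB1.

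Around these 10 genes, a list of 72 further genes of the pathway was read in 11 groups. On TGFB1, 6 passed 1.5-fold higher and 9 lower in *Hmga2*+/+ MEF, and 8 higher and 9 lower in *Hmga2*-/- MEF (14 higher and 8 lower with libraries scaled by the median ratio). In all, 15 of 72 and 17 of 72 passed, against the 30.9% and 31.2% of all named genes given above, and the list's medians were -0.07 and -0.0065. The counts in single groups below are small and stand beside the same shares. By direction these were 11.7% higher and 19.3% lower in *Hmga2*+/+ MEF, and 12.9% higher and 18.4% lower in *Hmga2*-/- MEF. Of the 6 and 8 genes that were higher, 5 were shared by the genotypes, and of the 9 and 9 that were lower, 8 were shared. How often calls were shared among all genes was not computed, so this is not a trait shown for the list.

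Of the 14 substrates and effectors, 4 were higher and 2 lower past 1.5-fold in *Hmga2*+/+ MEF and 4 higher and 1 lower in *Hmga2*-/- MEF, with medians of -0.0025 and -0.02. *Sgk1*, a kinase gene whose product mTORC2 phosphorylates, had 9.86 RPKM in *Hmga2*+/+ Ctrl and 30.0 in *Hmga2*+/+ TGFB1, and rose 3.04-fold. In *Hmga2*-/- MEF it rose 3.20-fold, from 12.4 to 39.7 RPKM. *Atf4*, a transcription factor gene of the amino acid response, rose 2.06-fold from 60.5 to 125 RPKM in *Hmga2*+/+ and 2.23-fold from 58.7 to 131 RPKM in *Hmga2*-/- MEF.

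*Eif4ebp1*, the gene of the translation repressor 4E-BP1, rose 1.95-fold from 11.4 to 22.2 RPKM in *Hmga2*+/+ and 2.29-fold from 12.7 to 29.0 RPKM in *Hmga2*-/- MEF. In the same group *Pdcd4*, the gene of an inhibitor of the helicase EIF4A that S6 kinase marks for breakdown, fell 3.48-fold from 14.7 to 4.22 RPKM in *Hmga2*+/+ and 3.33-fold from 11.6 to 3.48 RPKM in *Hmga2*-/- MEF. It had the lowest ratio of the 72 genes in both genotypes, as *Sgk1* had the highest.

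Among PI3K, PDK1 and AKT genes, 1 of 8 was higher and 2 lower in each genotype. *Pik3r2*, a regulatory subunit gene of PI3K, fell 2.18-fold from 16.8 to 7.71 RPKM in *Hmga2*+/+ and 2.16-fold from 15.1 to 6.995 RPKM in *Hmga2*-/- MEF. Of the 4 insulin and IGF receptor and substrate genes, none passed in *Hmga2*+/+ MEF and *Irs1*, an adaptor gene of these receptors, fell in *Hmga2*-/- MEF, 1.84-fold from 15.3 to 8.31 RPKM.

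The 5 stress inhibitors of mTORC1 split. *Sesn1*, a sestrin gene, fell 2.01-fold in *Hmga2*+/+ MEF from 6.48 to 3.22 RPKM and 1.62-fold in *Hmga2*-/- MEF from 5.45 to 3.37 RPKM. *Sesn3* fell 1.71-fold in *Hmga2*+/+ MEF from 13.1 to 7.64 RPKM and 2.15-fold in *Hmga2*-/- MEF from 12.3 to 5.71 RPKM. *Ddit4*, the gene of REDD1, which acts through the TSC complex, rose 1.66-fold in *Hmga2*-/- MEF from 4.17 to 6.94 RPKM (log2 0.73, 0.55 to 0.92), with an interval that reached under 1.5-fold. In this group 2 of 5 were lower and none higher in *Hmga2*+/+ MEF, and 2 were lower and 2 higher in *Hmga2*-/- MEF. The highest log2 ratio of the group in *Hmga2*+/+ MEF was 0.55, just short of 1.5-fold, so these counts turn in part on the threshold.

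Of the 9 Rag GTPase and Ragulator genes, which place mTORC1 on the lysosome, 1 was lower in each genotype and none higher. It was *Lamtor2*, which fell 1.98-fold in *Hmga2*+/+ MEF from 19.1 to 9.62 RPKM and 1.68-fold in *Hmga2*-/- MEF from 16.9 to 10.1 RPKM. In GATOR2, which relays amino acid signals, *Mios* was the 1 of 5 past 1.5-fold in *Hmga2*+/+ MEF and rose 1.61-fold from 3.70 to 5.96 RPKM (log2 0.69, 0.56 to 0.82), and none of the 5 passed in *Hmga2*-/- MEF. The median of the GATOR2 genes was nevertheless larger in *Hmga2*-/- (0.48) than in *Hmga2*+/+ MEF (0.30). Their highest value in *Hmga2*-/- MEF, 0.56, was just short of 1.5-fold. None of the 7 LKB1 and AMPK genes and none of the 6 GATOR1 and KICSTOR genes passed in either genotype. Of the 6 amino acid sensor and folliculin genes 1 was lower in each genotype. Of the pair of genes for the third TSC subunit and the *Rheb* paralog, 1 was lower in each.

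Among the 6 further mTORC2 subunits and mTOR chaperones none passed in *Hmga2*+/+ MEF. In *Hmga2*-/- MEF 1 did, *Prr5*, at 0.562 RPKM in Ctrl and 1.14 in TGFB1, from 52 and 106 reads (log2 1.02, 0.53 to 1.53). *Prr5* falls below the 1 RPKM asked of named genes and was named after its values were seen, as were *Nprl3* and *Castor1* next. Between genotypes, 1 of the 72 genes passed in Ctrl, *Nprl3* of GATOR1, at 1.48 RPKM in *Hmga2*+/+ and 0.958 in *Hmga2*-/- MEF (log2 -0.63, -0.94 to -0.32), beside 17.3% of all named genes (5.78% of those that reached 1 RPKM). None passed there with a pseudocount of 1 or 0.1, the transcript of highest RPKM or the mean of transcripts. In the TGFB1 libraries 2 passed, both higher in *Hmga2*-/- MEF, beside 9.4% of all named genes on that side (3.91% of those that reached 1 RPKM), and none with a pseudocount of 1. They were *Ddit4l*, the *Ddit4* paralog, at 1.49 RPKM in *Hmga2*+/+ and 2.63 in *Hmga2*-/- (1.76-fold, log2 0.82, 0.58 to 1.06), and the arginine sensor gene *Castor1*, at 0.695 and 1.12 RPKM from 61 and 98 reads (log2 0.69, 0.22 to 1.18). The list's medians were -0.05 and 0.03. For the other pathway genes named with a fold change, *Sgk1*, *Atf4*, *Eif4ebp1*, *Pdcd4*, *Pik3r2*, *Irs1*, *Sesn1*, *Sesn3* and *Lamtor2*, the whole counting interval lay beyond 1.5-fold, except for *Sesn1* (log2 -0.69, -0.84 to -0.55) and *Lamtor2* (log2 -0.75, -0.95 to -0.55) in *Hmga2*-/- MEF.

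**Figure D5:**
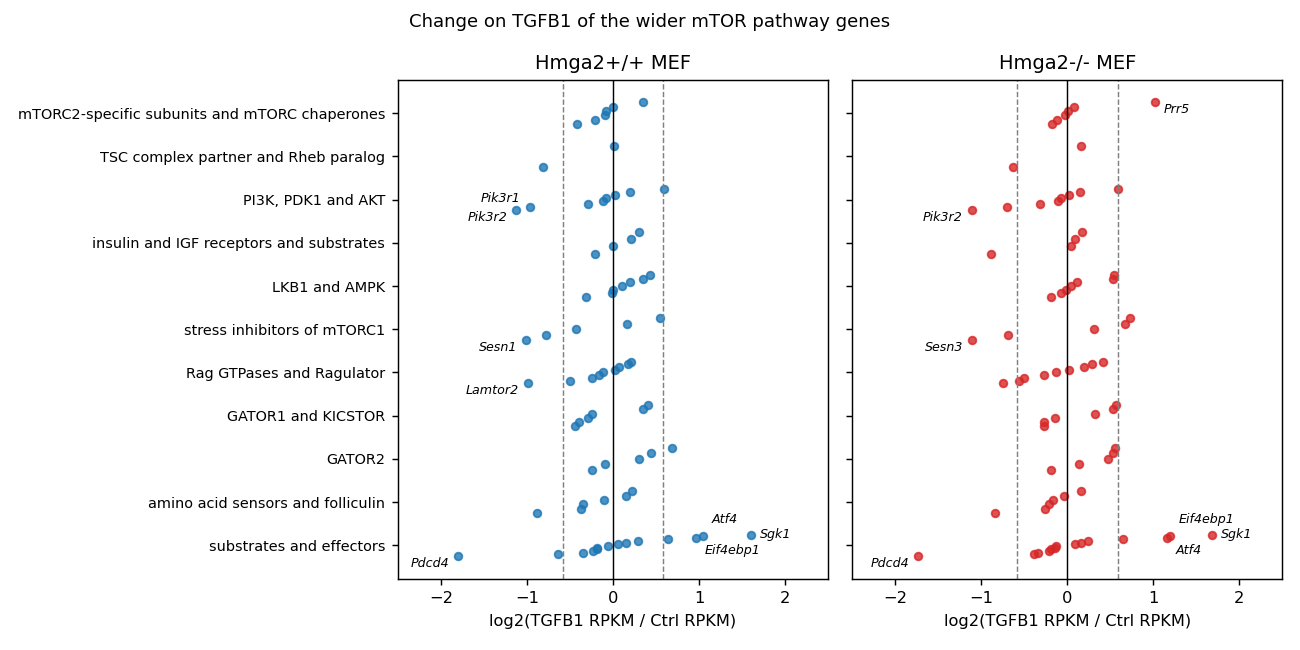
Log2 ratio of TGFB1 to Ctrl RPKM (x axis) of 72 pathway genes, 1 point each, in 11 groups (y axis) for *Hmga2*+/+ (left) and *Hmga2*-/- MEF (right), with 1.5-fold as dashed lines and the genes at about 2-fold or more named. *Sgk1* lies farthest to the right and *Pdcd4* farthest to the left in both genotypes.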

How the data were processed

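RNA-seq of total RNA was analysed for 4 MEF libraries, 1 per genotype and treatment. The authors deposited RPKM values for 63759 UCSC known gene transcripts of mm10, counted on the annotated strand, with each transcript's length in bases (an other, descriptive column, deposited by the authors). Their sources name FastQC, Trimmomatic, HISAT2 2.1.0, SAMtools and HOMER, and single-end reads of 75 bases. The file header gives exons as the counted feature and the methods give genes. The methods speak of duplicates, and whether these were pooled is not given in the sources used here.

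A transcript took the name of the GENCODE vM21 gene that covered at least 50% of it on its strand, which 57708 transcripts (90.5%) did. Values of 0 RPKM were set to 0.001, and a ratio past 1.5-fold was called, as in the study's methods. The mapped reads of each library were taken as the smallest depth at which RPKM times length gave whole reads, and 100% of the low values tested lay within 0.1 of a whole read. Exact conditional 95% intervals were computed from the derived reads and cover counting error only. RPKM are not counts and no condition has replicates, so no test between conditions was run. *Mtor*, *Rptor*, *Akt1s1*, *Mlst8*, *Deptor*, *Tsc2* and *Rps6kb1* overlap genes of the opposite strand, whose reads strand-specific counting separates. *Mtor*, *Rptor*, *Akt1s1* and *Rheb* also overlap non-coding RNA genes of their own strand, which strand alone does not separate.

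Named pathway genes were those past 1.5-fold with at least 1 RPKM in both libraries, at most 4 per comparison and direction. The members and lists were chosen with earlier results of these data known. One further pathway gene and one further treatment check are not reported here. Alternatives were pseudocounts of 1 and 0.1, median ratio scaling, the transcript of highest RPKM, the mean of all transcripts, a 1.2-fold threshold and a filter at 1 RPKM. Scripts were tested on simulated data and used Python 3.11.15, numpy 2.4.6, pandas 2.3.3, scipy 1.17.1 and matplotlib 3.10.9.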

Additional observations from a re-analysis of the deposited data

Results flagged for a closer look

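For 4 of the 10 genes the change on TGFB1 had opposite signs in the genotypes. How often this held among all genes was not computed, so it is not a trait shown for these genes. The difference between genotypes was not tested, since each condition has 1 library, and the 8 changes behind it were all within 1.5-fold. *Mtor* was 0.07 in *Hmga2*+/+ and -0.07 in *Hmga2*-/- MEF on the log2 scale, a difference (*Hmga2*-/- minus *Hmga2*+/+) of -0.13 with a counting interval of -0.22 to -0.04. *Akt1s1* was -0.05 and 0.11, a difference of 0.16 (-0.02 to 0.34). *Mlst8* was -0.09 and 0.12, a difference of 0.21 (0.0053 to 0.41). *Tsc1* was 0.05 and -0.16, a difference of -0.21 (-0.30 to -0.12). With libraries scaled by the median ratio, the *Hmga2*+/+ values of *Akt1s1* and *Mlst8* became 0.04 and 0.0063, and their signs were then alike in both genotypes.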

How the results depend on the processing

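Over the 5 alternatives that change a value the log2 changes of the 10 genes kept their call in all but 5 of 200 values. *Deptor* between the Ctrl libraries fell short of 1.5-fold at -0.45 and -0.582 with pseudocounts of 1 and 0.1 and at -0.57 under median ratio scaling, *Deptor* between the TGFB1 libraries at -0.28 with a pseudocount of 1, and *Tsc2* in *Hmga2*+/+ MEF passed at -0.61 with its transcript of highest RPKM, the fragment of 191 bases. Another 5 values changed sign, all within 1.5-fold, and so did 4 of 50 genotype differences in the TGFB1 response. Of 85 summary values 21 moved, and a change of sign was not scored for them. The members' median between the Ctrl libraries went from -0.03 to 0.0052 under median ratio scaling. A 1.2-fold threshold, which calls more genes by construction, gave 5 members on TGFB1 in *Hmga2*+/+ MEF, 4 in *Hmga2*-/- MEF and 2 between genotypes at each treatment. It gave 36, 36, 13 and 14 pathway genes in the comparisons TGFB1 in *Hmga2*+/+, TGFB1 in *Hmga2*-/-, Ctrl and TGFB1 between genotypes. The shares of all genes past 1.2-fold, or past 1.5-fold with a pseudocount, were not computed, so these counts have no share beside them. A pseudocount of 1, which shrinks low values, gave 9, 11, 0 and 0 pathway genes in that order and 0 members between genotypes. Between the Ctrl libraries the count of members was also 0 with a pseudocount of 0.1 and with median ratio scaling, and that of pathway genes 0 with a pseudocount of 0.1, the highest transcript and the mean of transcripts. Under median ratio scaling, which shifted all log2 changes by 0.09, 0.05, 0.03 and -0.0058 in that order, the members' median on TGFB1 in *Hmga2*+/+ MEF was 0.15. The genotype difference of largest size was *Tsc1* at -0.25 under median ratio scaling and *Mtor* at -0.40 with the transcript of highest RPKM, where the main choice gave *Rheb* at 0.28, and the cause was not tested.

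No paired analysis was possible because each condition has 1 library, and for the same reason no library was left out in turn. Depth was not what limited most values, since the fewest reads behind a member were 222, but the spread between cultures is unknown.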
